A study of Mus musculus with 2 samples.

Results

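Among the deeply sequenced muscle stem cells in the table of the 90% library, 139 cells carried the genes of mitosis as their leading program. They were 139 of 603 cells, a share of 23.05% (exact 95% interval 19.75 to 26.62%). A cell was taken as a barcode with at least 20000 unique molecular identifiers (UMIs), without UMIs of the leukocyte gene Ptprc. For each of 24 genes, the level was taken as log2(CPM + 1), CPM being the UMIs of the gene per 1000000 UMIs of the cell. The level was turned into a z-score over all 606 barcodes of that depth, before the 3 with Ptprc UMIs were left out. These z-scores were averaged over 4 genes in each of 6 sets. The sets were S phase (Mcm5, Mcm6, Pcna, Tyms), mitosis (Ccnb1, Cdc20, Cdk1, Birc5), differentiation (Myog, Mymk, Cdkn1c, Ak1), interferon (Ifit1, Isg15, Iigp1, Ifi27l2a), Nupr1-Neat1 (Nupr1, Neat1, Hmox1, Ndrg1) and heat shock (Hspa1a, Fosb, Smad7, Atf3). The 139 cells, called members here, were those whose highest mean was that of the mitosis set. The other 464 cells fell into the Nupr1-Neat1 (150 cells), heat-shock (108), S-phase (72), differentiation (72) and interferon (62) classes.

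The cells came from Pax7CreERT2;R26RYFP mice on a C57BL6 background, in which the Cre driven by Pax7 switches on YFP in satellite cells once tamoxifen is given. At 3 months of age the mice received tamoxifen daily for 5 days, and hindlimb muscle was collected 2 weeks later. Quiescent cells were taken from uninjured muscle and activated cells 72 hours after injection of 1.2% barium chloride into the lower hindlimb, and both were sorted on YFP. They were run in 1 capture with the 10x 3′ protocol, and the droplets were divided into a 10% aliquot, read by Illumina and nanopore sequencing, and a 90% aliquot, read by Illumina sequencing. The number of mice is not given in the sources used here, and no label tells which cells came from injured muscle. With 1 capture there are no replicates, so no test between classes was run. Intervals of shares (Clopper-Pearson) and of folds (2 Poisson counts) are exact, at 95%, and cover counting error only.

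Satellite cells are the stem cells of skeletal muscle. They rest under the basal lamina of the fibre and, after injury, enter the cell cycle, divide and later differentiate or return to rest. Entry into mitosis is driven by the kinase Cdk1 bound to cyclin B. Chromosomes are then condensed, attached to spindle microtubules at the kinetochore, and held until the spindle checkpoint releases Cdc20, which turns on the anaphase-promoting complex (APC/C) so that cyclin B is degraded, sister chromatids part and the cell is cleaved. The genes for these steps are transcribed late in the cycle, in G2 and M. Their RNA levels alone do not place a cell in mitosis.

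The 90% table held 39044129 UMIs over 3001 barcodes. Members held between 20069 and 112630 UMIs, with a median of 49721, and a median of 5634 detected genes. The S-phase class had a median of 47568.5 UMIs, and the other 464 cells together one of 46502. Scrublet, a doublet caller, marked 6 of 3001 barcodes and none of the 603 cells. The tables shared barcodes: of the 79 deep barcodes of the 10% table, 76 were also deep in the 90% table. Across 20506 genes, the log2(CPM + 1) profiles of the same barcode in both tables had a median Pearson r of 0.937, against 0.683 for different barcodes, and all 76 shared barcodes were closest to their own profile. Of the members, 21 were such shared barcodes. Dividing droplets should put a cell into a single aliquot, so the 90% table may hold cells of both aliquots. How these barcodes came into both tables is not given in the sources used here and was not tested. Where the fold of a named gene without them left its interval, it is given beside the result, and the 10% aliquot is no independent set of cells.

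The cells were first set against the markers of what the sample could hold. Satellite cell identity genes summed to 829.6 CPM in members and 898.7 CPM in the other deep cells. The 10 quiescence genes summed to 72.6 CPM in members and 85.5 CPM in the other deep cells. Of quiescence genes only Chrdl2, Heyl and Calcr were picked for a comparison with shallower barcodes. After every cell was thinned to 2000 UMIs, they had a UMI in 0 (up to 2.62%), 1.44 and 0.719% of members. In 1501 shallower barcodes, from 2000 to under 10000 UMIs (median 4406), these shares were 23.1, 21.3 and 6.26%. In the same barcodes, Ccnb1 had a UMI in 0.333%, Cdc20 in 1.20%, Cdk1 in 0.733% and Birc5 in 1.40%, and in members these shares were 21.6, 33.1, 25.2 and 46.8%. Myod1, a transcription factor of activated satellite cells and myoblasts, had a UMI in 46.0% of members and 39.2% of the shallower barcodes at that depth (37.6 to 54.7 and 36.7 to 41.7%), while its pooled level was lower in members, at 319 CPM against 1025 CPM. Markers of other cells were low. Over 15 immune genes, of which 14 were in the table, members summed to 3.92 CPM (cells 0 to 65.6) and the others to 7.17 CPM, and Ptprc, Cd74, Cd3e and S100a8 were at 0 in members. The 6 endothelial genes summed to 5.04 and 6.55 CPM, with Cdh5, Kdr, Tie1 and Emcn at 0 in members, and the 6 mural and glial genes to 1.26 and 5.89 CPM, with Myh11 at 0. The 7 fibro-adipogenic genes summed to 32.5 CPM (cells 0 to 880) and 56.2 CPM, with Pdgfra, Col1a1 and Lum at 0, and the 7 myofibre genes to 18.8 and 25.5 CPM, with Myh2, Myh4 and Mb at 0.

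The 4 genes that chose the members are given as a description. Ccnb1 (cyclin B1, ENSMUSG00000041431, chr13:100778650-100786570 of GRCm38) ranged from 0 to 42 UMIs in a member, with a median of 5. Pooled over cells it was at 133.9 CPM in members and 23.5 CPM in the other deep cells, a fold of 5.70 (5.12 to 6.34). Cdc20 (ENSMUSG00000006398, chr4:118432901-118437352), the APC/C activator, ranged from 0 to 42 UMIs with a median of 9, at 208 CPM against 40.9 CPM, a fold of 5.09 (4.69 to 5.54). Cdk1 (ENSMUSG00000019942, chr10:69335146-69352938), the mitotic kinase, ranged from 0 to 48 UMIs with a median of 5, at 167 against 40.3 CPM (4.15-fold, 3.81 to 4.53). Birc5 (survivin, ENSMUSG00000017716, chr11:117849251-117855743), of the chromosomal passenger complex, ranged from 2 to 52 UMIs with a median of 14. It was at 287 against 122 CPM, a fold of 2.35 (2.22 to 2.49), the smallest of the set. All 4 genes had a UMI in 119 members, 3 genes in 19 and 2 genes in 1, while 93 of the other 464 cells also had UMIs of all 4 and 66 had none.

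The classes graded into each other. The mitosis score of members ran from −0.24 over a median of 0.98 to 1.94, and it was at least 0.5 in 121 members and below 0 in 1. S phase was the second-highest set in 86 members, differentiation in 22, interferon in 15, heat shock in 10 and Nupr1-Neat1 in 6. Conversely, mitosis was the second set in 39 of the 72 S-phase cells and in 92 of all 464 others. In 47 members the margin over the second set was under 0.25. The members nearest to the limit had mitosis scores of 0.797, 1.14 and 0.858, which passed those of differentiation, interferon and S phase by 0.001, 0.009 and 0.016. The nearest cells outside had mitosis scores of 0.671, 1.30 and 1.11, below those of S phase, interferon and S phase by 0.004, 0.012 and 0.019. A total of 12 cells outside, 5 of them in the interferon class, had a higher mitosis score than the median member.

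**Figure D1:**
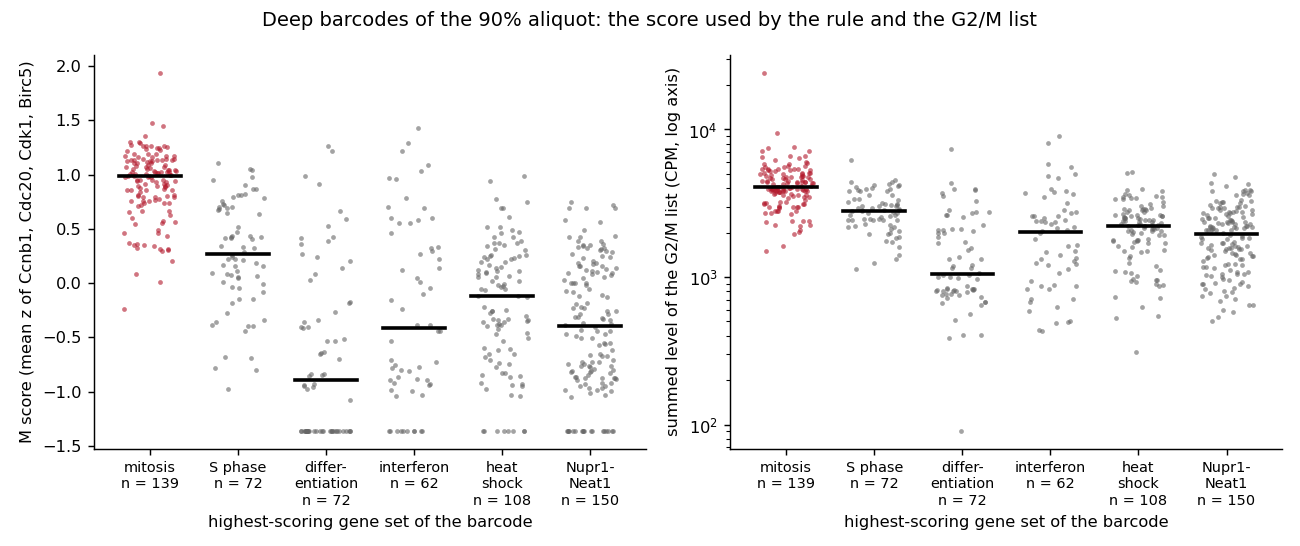
Each point is a deep barcode of the 90% aliquot, grouped on the x axis by its highest-scoring gene set, and bars are medians. Left, the mitosis score (mean z of Ccnb1, Cdc20, Cdk1 and Birc5), by which members were chosen, and right, the summed CPM of the G2/M list on a log axis. The median G2/M level was 4055 CPM in members and 2819 CPM in the S-phase class, with overlapping ranges, and a single member lay at 24322 CPM.

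The G2/M list as used here, 51 human genes from a published cell cycle signature by their mouse symbols, holds none of the 24 genes of the rule. Its summed level in a cell ranged from 1496 to 24322 CPM in members, with a median of 4055 CPM. In the S-phase class it ranged from 1136 to 6178 CPM, with a median of 2819 CPM, and over all 464 others the median was 2116 CPM. The groups overlapped, since 25 of the others lay above the members' median (9 S phase, 7 interferon, 5 Nupr1-Neat1, 2 differentiation, 2 heat shock) and 5 members lay below the median of the others. The S-phase list of the same signature ranged from 359 to 4481 CPM in members, with a median of 1865 CPM, against 2342 CPM in the S-phase class and 1079 CPM in all others. Members therefore held RNA of both lists.

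Promoters of the genes that the rule used and of genes described below are shown because late cell cycle genes are known for paired CCAAT boxes, bound by NF-Y, and for the cell cycle genes homology region, bound by the DREAM complex and MuvB with B-Myb and FoxM1. The sequences are from RefSeq on GRCm38.p6, 130 bases read 5′ to 3′ on the strand of the gene, and capitals mark the CCAAT box on either strand (read as ATTGG on the opposite one), and, for the homology region, TTTGAA on either strand (read there as TTCAAA) together with the palindrome TTTAAA. Ccnb1 is read from chr13:100786487-100786616 (minus strand), Cdc20 from chr4:118437344-118437473 (minus strand), Cdk1 from chr10:69352913-69353042 (minus strand), Birc5 from chr11:117849107-117849236 (plus strand), Plk1 from chr7:122159305-122159434 (plus strand), Ube2c from chr2:164769799-164769928 (plus strand) and Kpna2 from chr11:106999526-106999655 (minus strand). Tyms, of the S-phase set, from chr5:30073626-30073755 (minus strand), is shown as a single gene of another set and does not stand for S-phase genes.
Ccnb1: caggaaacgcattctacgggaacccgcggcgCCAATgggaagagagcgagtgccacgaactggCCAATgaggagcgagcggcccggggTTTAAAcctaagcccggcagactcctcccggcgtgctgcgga
Cdc20: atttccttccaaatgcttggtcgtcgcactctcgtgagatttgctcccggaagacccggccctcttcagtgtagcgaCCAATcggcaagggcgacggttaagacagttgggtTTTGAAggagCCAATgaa
Cdk1: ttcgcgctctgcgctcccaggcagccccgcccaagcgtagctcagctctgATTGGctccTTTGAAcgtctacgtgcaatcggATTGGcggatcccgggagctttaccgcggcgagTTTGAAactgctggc
Birc5: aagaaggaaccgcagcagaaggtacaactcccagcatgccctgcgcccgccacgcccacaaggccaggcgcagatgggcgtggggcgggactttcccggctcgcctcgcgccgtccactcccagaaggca
Plk1: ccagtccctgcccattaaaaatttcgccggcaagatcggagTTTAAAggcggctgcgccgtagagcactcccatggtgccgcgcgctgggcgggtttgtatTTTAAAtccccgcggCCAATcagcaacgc
Ube2c: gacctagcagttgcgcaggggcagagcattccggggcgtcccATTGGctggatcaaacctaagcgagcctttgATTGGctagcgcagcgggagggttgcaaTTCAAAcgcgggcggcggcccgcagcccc
Kpna2: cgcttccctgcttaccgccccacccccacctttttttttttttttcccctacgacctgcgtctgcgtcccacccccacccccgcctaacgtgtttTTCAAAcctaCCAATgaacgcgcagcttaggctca
Tyms: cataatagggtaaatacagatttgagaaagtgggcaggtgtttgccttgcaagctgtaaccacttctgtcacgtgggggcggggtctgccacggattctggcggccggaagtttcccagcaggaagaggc
The Ccnb1 stretch has CCAAT 99 and 67 bases before the start and TTTAAA 42 bases before it. Cdc20 has CCAAT at 53 and 8 bases, with TTTGAA at 18 bases between them, and Cdk1 has ATTGG at 80 and 48 bases and TTTGAA at 71 and 15 bases. Birc5 has none of the motifs in this stretch, and TTTAAA 220 bases before its start. Within 250 bases before the start, on either strand, the CCAAT box was found in 34.46% of 27025 promoters. It was found in 34 of the 44 G2/M list genes that had a promoter in the table (77.27%). Of the 7 mitosis lists described below 113 of 134 genes had a promoter in the table, and 65 of these held the box (57.52%). At least 2 boxes were found in 10.54% of all promoters, 56.82% of the G2/M list and 33.63% of the mitosis lists. The homology region motif was found in 25.48% of all promoters, 22 of 44 of the G2/M list (50%) and 39 of 113 of the mitosis lists (34.51%). Both kinds of motif were found in 8.995% of all promoters, 45.45% of the G2/M list and 25.66% of the mitosis lists. Of the S list only 28 of 40 genes had a promoter in the table, and 20 of these held the CCAAT box (71.43%). Of these 28 promoters, 35.71% had at least 2 boxes, 17.86% the homology region motif and 14.29% both kinds. These are matches of letters in a window, not binding.

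For all other genes, UMIs were summed over cells. Genes with at least 20 CPM in either group were compared, which 4706 genes passed. Of these, 141 were at least 2-fold higher in members than in all other deep cells (3%) and 103 at least 2-fold lower (2.19%). Since the members were chosen on 4 late cell cycle genes of the same cells, these folds are a description. Of the 141 genes, 4 were those of the mitosis set, 43 others were in the G2/M list or the 7 mitosis lists below, and 94 were in none of these. A listed gene that passed only because it is high in members had to differ, so the number of such genes is given where it is above 0, and counts or medians are also given over listed genes with at least 10 UMIs. Over all genes with that many UMIs, 761 of 15951 (4.77%) were at least 2-fold higher and 1906 (11.9%) lower. Of the 51 G2/M list genes 37 passed, 16 of them through members alone, and 23 were at least 2-fold higher and none lower, with a median log2 fold of 1.24 against 0.08 over all genes that passed. With at least 10 UMIs, 32 of 51 were at least 2-fold higher, again with a median of 1.24, against −0.05 over all genes. The highest of those that passed was Aurka and the lowest Ctcf, the insulator protein, at 38.6 and 35.5 CPM (1.09-fold, 0.945 to 1.25). Genes that make up a count of 5 or fewer are named in what follows also where their names were chosen after the values were seen.

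Among 21 genes of mitotic entry, 11 passed, 6 of them through members alone, and 6 were at least 2-fold higher, with a median log2 fold of 1.16 (0.60 over all 21 with at least 10 UMIs, of which 9 were higher and 1 lower). Plk1, the polo-like kinase that activates Cdk1 and builds the spindle poles, ranged from 0 to 11 UMIs in a member with a median of 1, and 37 members had none. It was at 34.6 CPM in members and 6.24 CPM in the others, a fold of 5.54 (4.48 to 6.86). Aurka (Aurora A), the centrosome kinase that activates Plk1, was at 52.9 and 10.7 CPM (4.94-fold, 4.19 to 5.82), and 46 members had no UMI of it. Melk, a kinase of proliferating cells, was at 22.5 and 7.66 CPM (2.94-fold, 2.36 to 3.67). Arpp19, which after phosphorylation inhibits the phosphatase that opposes Cdk1, was at 244 and 219 CPM (1.12-fold, 1.06 to 1.18).

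Of 31 kinetochore genes 21 passed, 13 through members alone, and 11 were at least 2-fold higher (15 of 31 with at least 10 UMIs), with a median log2 fold of 1.07. Cenpe, the kinesin that carries chromosomes to the spindle equator, ranged from 0 to 14 UMIs with a median of 2, at 56.7 against 12.8 CPM (4.41-fold, 3.79 to 5.15). Cenpf, a large protein of the outer kinetochore, was at 67.2 and 21.3 CPM (3.16-fold, 2.78 to 3.59), and the fold was 2.46 without the barcodes deep in both aliquots. Cdca8 (borealin), a partner of Birc5 in the passenger complex, was at 122 and 38.8 CPM (3.15-fold, 2.86 to 3.46). Cenpm, a subunit of the constitutive centromere network, was at 23.0 and 27.1 CPM, a fold of 0.847 (0.708 to 1.01).

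Of 10 genes of the spindle checkpoint, which holds anaphase until chromosomes are attached, 4 passed, 2 of them through members alone, and 3 were at least 2-fold higher (5 of 10 with at least 10 UMIs, median log2 fold 1.02). Bub1b (BubR1) was at 22.3 and 6.997 CPM (3.18-fold, 2.54 to 3.99), Mad2l1 (Mad2) at 57.7 and 22.1 CPM (2.61-fold, 2.29 to 2.98) and Bub3 at 146 and 61.1 CPM (2.39-fold, 2.21 to 2.59). The kinase Bub1 was at 26.4 and 13.5 CPM (1.96-fold, 1.62 to 2.36). The genes of the APC/C and of mitotic exit were closer to all genes. Of 20 listed, 15 passed, 2 through members alone, and 1 was at least 2-fold higher, with a median log2 fold of 0.40 (2 of 20 and 0.43 with at least 10 UMIs). That gene was Ube2c, the ubiquitin-conjugating enzyme of the APC/C, which ranged from 0 to 95 UMIs in a member with a median of 12. It was at 297 CPM in members and 87.3 CPM in the others, a fold of 3.40 (3.20 to 3.62), and the fold was 3.06 without the shared barcodes. Fzr1 (Cdh1), the activator that follows Cdc20, was at 34.1 and 21.97 CPM (1.55-fold, 1.33 to 1.82), and Fbxo5 (Emi1), an inhibitor of the complex, at 29.4 and 20.2 CPM (1.45-fold, 1.23 to 1.71). The subunit Anapc5 was at 70.4 and 107 CPM, a fold of 0.660 (0.598 to 0.726).

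Of 12 genes of condensin and mitotic chromosomes 6 passed, 2 through members alone, and 2 were at least 2-fold higher (4 of 12 with at least 10 UMIs), with a median log2 fold of 0.85. These were Ncapg, a condensin subunit, at 35.1 and 11.6 CPM (3.02-fold, 2.53 to 3.60), and Mki67, which coats mitotic chromosomes, at 40.7 and 19.7 CPM (2.07-fold, 1.78 to 2.41). Mki67 was 1.72-fold higher without the shared barcodes. Top2a, the topoisomerase that untangles sister DNA, was at 115 and 59.5 CPM (1.94-fold, 1.77 to 2.11, and 1.67-fold without the shared barcodes), and the condensin II subunit Ncaph2 at 28.4 and 26.5 CPM (1.07-fold, 0.910 to 1.26). Cohesin, which holds sister chromatids together from S phase on, differed little. Of 9 genes 8 passed, 0 were at least 2-fold apart and the median log2 fold was 0.06 (0 of 9 and 0.11 with at least 10 UMIs), from Rad21 at 66.2 and 42.4 CPM (1.56-fold, 1.39 to 1.74) to the loader Nipbl at 33.4 and 46.2 CPM (0.724-fold, 0.626 to 0.834).

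Of 28 spindle and microtubule genes 15 passed, 6 through members alone, and 11 were at least 2-fold higher (21 of 28 with at least 10 UMIs), with a median log2 fold of 1.32. Ckap2l, a protein of spindle poles, was at 26.9 and 6.20 CPM (4.33-fold, 3.47 to 5.43). Kpna2, an importin that carries spindle assembly factors, was at 72.8 and 20.5 CPM (3.55-fold, 3.13 to 4.03), and Nusap1, which bundles spindle microtubules, at 30.6 and 8.95 CPM (3.43-fold, 2.82 to 4.17). Without the shared barcodes these last folds were 3.02 and 2.69. Stmn1 (stathmin), which destabilises microtubules, was at 64.8 and 50.04 CPM (1.29-fold, 1.16 to 1.44). Of 12 cytokinesis genes 11 passed, 6 through members alone, and 7 were at least 2-fold higher, with a median log2 fold of 1.24 (7 of 12 and 1.20 with at least 10 UMIs). All 3 with the largest folds are kinesins of the midzone. Kif20a was at 34.6 and 8.06 CPM (4.29-fold, 3.53 to 5.22), Kif23, of the centralspindlin complex, at 28.3 and 6.82 CPM (4.14-fold, 3.34 to 5.15) and Kif20b at 23.9 and 6.997 CPM (3.42-fold, 2.74 to 4.27). Rock2, a kinase of the contractile ring with many other roles, was at 41.0 and 58.0 CPM (0.707-fold, 0.621 to 0.803).

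**Figure D2:**
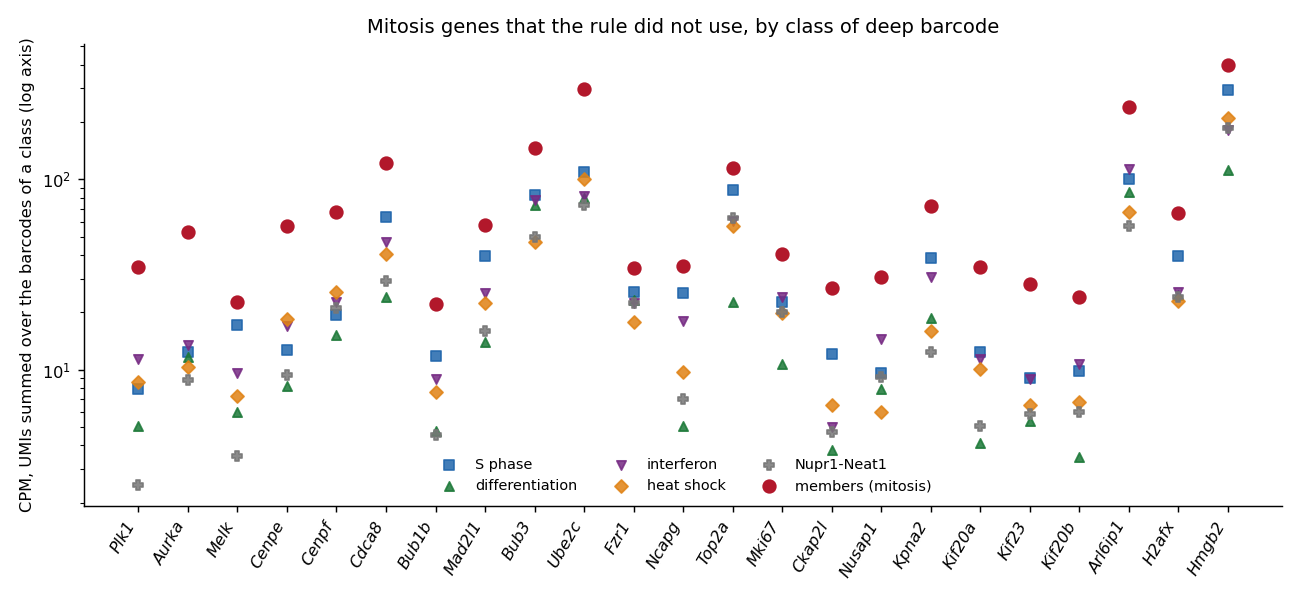
Levels of 23 mitosis genes that the rule did not use, as CPM of UMIs summed over the barcodes of each of the 6 classes of the 90% aliquot (log axis), without replicates. Members (red circles) are the highest class for every gene shown. The S-phase class (blue squares) is next for Top2a (88.2 CPM against 115 CPM in members) and lies among the other classes for Plk1 (7.87 CPM against 34.6 CPM).

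Of the other classes, the S-phase class had the highest median G2/M level, and S phase was the second set of most members. The same members were therefore set against its 72 cells, which are also part of the other reference. Folds over the interferon, Nupr1-Neat1 and heat-shock classes were not computed. Here 4590 genes passed, and 40 (0.871%) were at least 2-fold higher and 9 (0.196%) lower in members. Of the G2/M list 16 of 37 genes that passed were at least 2-fold higher, 14 of the 37 having passed through members alone, with a median log2 fold of 0.84 against 0.02 over all genes. With at least 10 UMIs, 584 of 12822 genes (4.55%) were higher and 556 (4.34%) lower, and of the G2/M list 19 of 51 were higher. Of cytokinesis genes 6 of 11 were at least 2-fold higher (median log2 fold 1.12), of spindle genes 6 of 15 (0.84), of entry genes 4 of 11 (0.65), of kinetochore genes 4 of 21 (0.17), of checkpoint genes 0 of 4 (0.70) and of condensin genes 0 of 6 (0.40). Of the genes that passed, 5 cytokinesis, 5 spindle, 6 entry, 8 kinetochore, 2 checkpoint and 0 condensin genes did so through members alone. Of the APC/C list 1 of 15 was at least 2-fold higher, Ube2c, with a median of 0.03. Over listed genes with at least 10 UMIs the medians were 1.06 (cytokinesis), 0.86 (spindle), 0.39 (entry), 0.24 (kinetochore), 0.52 (checkpoint), 0.20 (condensin) and 0.17 (APC/C). The 4 entry genes were Plk1, Aurka, Nek2 and Cks2, and the kinetochore genes included Cenpe, Cenpf and Knl1. Cenpe was at 12.6 CPM in the S-phase class, a fold of 4.48 (3.29 to 6.24), Plk1 at 7.87 CPM (4.39-fold, 2.97 to 6.75), Aurka at 12.4 CPM (4.28-fold, 3.13 to 5.99) and Cenpf at 19.4 CPM (3.47-fold, 2.69 to 4.53). Other genes were less far apart. Ncapg was at 25.3 CPM (1.39-fold, 1.09 to 1.79), Melk at 17.1 CPM (1.31-fold, 0.973 to 1.795) and Fbxo5 at 37.9 CPM (0.775-fold, 0.621 to 0.969).

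Shares of cells with a UMI are given after thinning every cell to 20000 UMIs. Plk1 had a UMI in 47.5% of members (39.0 to 56.1%), 12.5% of S-phase cells (5.88 to 22.4%) and 9.70% of all others (7.16 to 12.8%), and unthinned in 73.4% of members and 17.7% of the others. Aurka had one in 52.5, 19.4 and 14.7%, Cenpe in 57.6, 19.4 and 16.4%, and Kif20a in 43.2, 16.7 and 11.2%. The shares in S-phase cells, which are part of all others, were somewhat above those of all others, and the differences were not tested. Ube2c had a UMI in 95.7% of members, 81.9% of S-phase cells and 60.3% of the others. In the shallower barcodes thinned to 2000 UMIs, Plk1 had a UMI in 0.266%, Aurka in 0.0666% and Ube2c in 1.93%, against 8.63, 10.1 and 41.7% of members at that depth.

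Replication genes were not low in members. Of the 40 S list genes 25 passed, 5 through members alone, and 2 were at least 2-fold higher than in all other cells, with a median log2 fold of 0.52 (3 of 40 and 0.41 with at least 10 UMIs). These were Cdca7, a Myc-regulated chromatin protein, at 34.4 and 14.3 CPM (2.40-fold, 2.02 to 2.84), and Rrm2, a subunit of ribonucleotide reductase, at 407 and 188 CPM (2.16-fold, 2.06 to 2.26). The lowest was Atad2, at 32.6 and 35.3 CPM (0.924-fold, 0.795 to 1.07). Against the S-phase class the median turned to −0.20 over 29 genes that passed, with 0 at least 2-fold higher and 1 lower, the uracil-DNA glycosylase Ung at a log2 fold of −1.13. The 4 S-phase genes of the rule were at 43.5 (Mcm5), 50.1 (Mcm6), 140 (Pcna) and 94.9 CPM (Tyms) in members and at 69.7, 84.6, 199 and 104 CPM in the S-phase class. Of 12 genes of the G1 transition 8 passed, 1 through members alone, and 0 were 2-fold apart (with at least 10 UMIs 1 of 12 was lower, median 0.15). Ccnd1 (cyclin D1) was at 303 and 162 CPM (1.87-fold, 1.77 to 1.97) and Myc at 41.7 and 56.7 CPM (0.736-fold, 0.646 to 0.835). Of 20 histone genes 9 passed, with a median log2 fold of 0.16 and 1 at least 2-fold higher (5 of 19 with at least 10 UMIs, median 0.30), H2afx, whose product is phosphorylated at DNA breaks and in mitosis, at 66.8 and 26.5 CPM (2.52-fold, 2.23 to 2.84), or 2.10-fold without the shared barcodes. Hist1h2bc was the lowest, at 54.0 and 76.0 CPM (0.711-fold, 0.635 to 0.795, and 0.630-fold without them). All 19 genes of the nuclear envelope, Ran and chromatin proteins passed, 1 through members alone, with a median log2 fold of 0.41. They ran from Hmgb2, a DNA-bending protein, at 399 and 198 CPM (2.02-fold, 1.92 to 2.11) to Hmgn1 at 737 and 888 CPM (0.829-fold, 0.804 to 0.855).

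Some brakes on the cycle and some stress genes were lower in members than in all other cells. Of 15 CDK inhibitors and p53 targets 7 passed, 0 were higher and 4 were at least 2-fold lower, with a median log2 fold of −1.09. These were Cdkn1a (p21) at 240 and 512 CPM, Ccng1 at 63.7 and 137 CPM, Mdm2 at 47.7 and 127 CPM and Gadd45a at 25.9 and 85.8 CPM, the last 3.31-fold lower (2.85 to 3.87). Gadd45b was at 41.7 and 44.0 CPM (0.948-fold, 0.830 to 1.08). With at least 10 UMIs 5 of 15 were lower, with a median of −0.41. Against the S-phase class 0 of 8 that passed were 2-fold apart (median −0.33), and in the 10% aliquot 1 of 7 was lower. Of 14 immediate-early and stress genes 7 passed and 4 were at least 2-fold lower (Jun, Fos, Dnajb1 and Jund), with a median log2 fold of −1.10, and with at least 10 UMIs 8 of 14 were lower (median −1.13). The heat-shock and Nupr1-Neat1 classes, which the rule set apart by genes of this kind, are part of the reference. Against the S-phase class 0 of 6 that passed were 2-fold apart, with a median of 0.09. The AP-1 gene Jund was at 39.7 CPM in members, 72.5 CPM in the S-phase class and 159 CPM in all others, 3.99-fold lower than in these (3.53 to 4.52). The transcription factor Klf4 was at 15.0, 29.8 and 94.9 CPM, 6.34-fold lower than in all others (5.22 to 7.77), the largest fold in this direction outside the rule among genes of at least 50 CPM. The chemokine Cxcl1 was 3.90-fold lower, the small heat shock gene Hspb1 3.76-fold, the kinase Sgk1 3.72-fold, Pnrc1 4.12-fold, Arid5b 3.54-fold, Ppp1r15a, which restores translation after stress, 3.42-fold and Ier5 3.41-fold. Hsp25-ps1 (4.31-fold lower) is a pseudogene of Hspb1, and its counts are uncertain because reads of both could be split. The chaperone Hsp90aa1 was at 916 and 674 CPM (1.36-fold, 1.32 to 1.40).

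Muscle genes lay differently against each reference class. Myod1 was at 319 CPM in members, 248 CPM in the S-phase class and 392 CPM in the differentiation class, and over all others at 179 CPM (1.78-fold, 1.69 to 1.87). Of 22 myogenic genes 10 passed and 2 were at least 2-fold lower, Mylpf and Acta1, the skeletal alpha-actin, at 0.840 and 22.3 CPM (26.5-fold lower, 12.1 to 72.6). With at least 10 UMIs 10 of 21 were lower, with a median log2 fold of −0.91. The differentiation class, which the rule set apart by genes of this kind, is part of this reference. Against the S-phase class 0 of 6 myogenic genes that passed were 2-fold apart (median 0.04). With at least 10 UMIs 1 of 16 was lower there. Against the differentiation class, where 296 of 4739 genes (6.25%) were at least 2-fold higher and 149 (3.14%) lower, 12 of 15 myogenic genes were at least 2-fold lower. A gene that passed only because it is high in that class had to be lower. Among myogenic genes with at least 10 UMIs, 15 of 19 were lower. In that comparison 32 of 37 G2/M list genes and 20 of 25 S list genes were at least 2-fold higher, where 20 and 11 had passed through members alone. With at least 10 UMIs, 1252 of 12917 genes (9.69%) were higher and 1136 (8.79%) lower, and of the lists 44 of 51 and 31 of 40 were higher. Pax7, the satellite cell factor, was at 6.997 and 8.02 CPM (0.873-fold, 0.625 to 1.20), with 111 of 139 members at 0 UMIs. Myf5 was at 28.0 and 38.5 CPM (0.727-fold, 0.620 to 0.849), and Sdc4, a surface proteoglycan, at 89.1 and 62.8 CPM (1.42-fold, 1.29 to 1.56). Of 10 quiescence genes only Hes1 passed, at 37.6 and 34.1 CPM (1.10-fold, 0.957 to 1.27). Of 12 interferon genes 3 passed, 1 of them through members alone (with at least 10 UMIs 5 of 12 were lower, median −0.62), among them Rtp4 at 21.1 and 13.7 CPM (1.54-fold, 1.26 to 1.88) and Bst2 at 156 and 218 CPM (0.717-fold, 0.671 to 0.766). Of 14 glycolysis genes 9 passed and 0 were 2-fold apart, from Eno1 at 1021 and 672 CPM (1.52-fold, 1.48 to 1.56) to Gpi1 at 149.2 and 149.1 CPM (1.00-fold, 0.933 to 1.07). The fibro-adipogenic Col3a1 was at 17.1 and 28.4 CPM (0.601-fold, 0.491 to 0.730) and the myofibre gene Tnnt3 at 17.4 and 22.3 CPM (0.777-fold, 0.634 to 0.948).

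By construction of the rule, the genes of its other 4 sets were lower in members than in the class of their own set. Myog, the factor of myoblast differentiation, was at 24.6 CPM in members and 551 CPM in the differentiation class, Mymk, which drives fusion, at 12.2 and 103 CPM, and the CDK inhibitor Cdkn1c at 6.02 and 197 CPM. Members were not low in all of them against the remaining classes. In the S-phase, interferon, Nupr1-Neat1 and heat-shock classes Myog was at 13.5, 45.1, 7.80 and 7.48 CPM. Mymk was at 10.96, 6.39, 9.23 and 5.24 CPM there. Of the interferon set, Isg15 was at 31.2 CPM in members and 51.3 CPM in all others. Of the stress sets, Hmox1 (heme oxygenase) was at 33.4 and 229 CPM (0.146-fold, and 0.123-fold without the shared barcodes) and Hspa1a (a chaperone) at 6.30 and 67.8 CPM. The other genes of these sets, Ak1, Ifit1, Iigp1, Ifi27l2a, Nupr1, Neat1, Ndrg1, Fosb, Smad7 and Atf3, had folds from 0.0357 (Iigp1) to 0.432 (Smad7) over all others. The fold of Iigp1 rests on 2 UMIs in members (0.00429 to 0.131), and that of Smad7 had an interval of 0.320 to 0.574. Ifit1, Iigp1, Ifi27l2a and Smad7 were under 20 CPM in both groups.

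Outside the lists, Arl6ip1, a membrane protein of the endoplasmic reticulum, ranged from 0 to 59 UMIs in a member with a median of 10, at 239 and 77.4 CPM (3.09-fold, 2.89 to 3.31, and 2.87-fold without the shared barcodes). Gm10184, a predicted gene, was at 78.9 and 23.2 CPM (3.41-fold, 3.02 to 3.85). Its counts are uncertain, since its reads could be shared with another gene, which was not tested. The genes Gm23935 (chr16:11144125-11144181) and Gm24270 (chr9:56223715-56223771), annotated as miRNAs, had folds of 4.002 (3.79 to 4.23) and 3.88 (3.63 to 4.15). Without the shared barcodes the folds were 3.42 and 3.41. Gm23935 ranged from 0 to 430 UMIs in a member with a median of 4, 35 members had none, and the median cell was at 73.0 CPM in members and 16.1 CPM in the others. The Nupr1-Neat1 class was at 16.4 CPM. A 3′ library of polyadenylated RNA does not measure mature miRNAs, and these counts are uncertain. Of the 141 higher genes 117 are protein-coding and 15 are processed pseudogenes, such as Ccnb1-ps at 29.9 and 6.997 CPM and Tubb4b-ps2 at 28.4 and 10.1 CPM, whose counts are uncertain because reads could be shared with the parent genes.

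A single member stood apart from the rest in its G2/M level. It lay at 24322 CPM, and the next members followed at 9453, 7594, 7519 and 7144 CPM. It had 22284 UMIs and 4463 genes, near the lower limit of depth, and its S list level of 359 CPM was the lowest of all members. It held 113 UMIs of the tubulin Tubb4b (5071 CPM, against 310 CPM summed over the other members), 28 of Cenpf (1257 against 63.5 CPM), 42 of Cdc20 (1885 against 203 CPM), 24 of Ccnb1 (1077 against 131 CPM) and 29 of Myod1 (1301 against 316 CPM). Its second set was differentiation, with 6 UMIs of Myog (269 against 23.9 CPM) and 7 of Cdkn1c (314 against 5.05 CPM), while Mymk, Ak1, Myf5 and Mylpf had 0 UMIs and Des 6 (269 against 349 CPM). The same barcode was deep in the 10% table, with 27164 short-read and 35773 long-read UMIs, and there Tubb4b was at 4160 CPM, Cenpf at 1215 CPM and Cdc20 at 1657 CPM. It also held 88 UMIs of smooth muscle actin Acta2 (3949 against 28.9 CPM) and 19 of the protease Htra3 (853 against 1.26 CPM), with 17 of Fxyd6 (763 against 8.42 CPM), 14 of the matrix proteoglycan Bgn (628 against 5.47 CPM) and 12 of C1qtnf3 (538 against 3.93 CPM), which were chosen after their values were seen. Without this cell 139 genes were at least 2-fold higher and 103 lower, the median log2 fold of the G2/M list was 1.23, and the fold of Cenpf was 2.98 in place of 3.16.

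**Figure D3:**
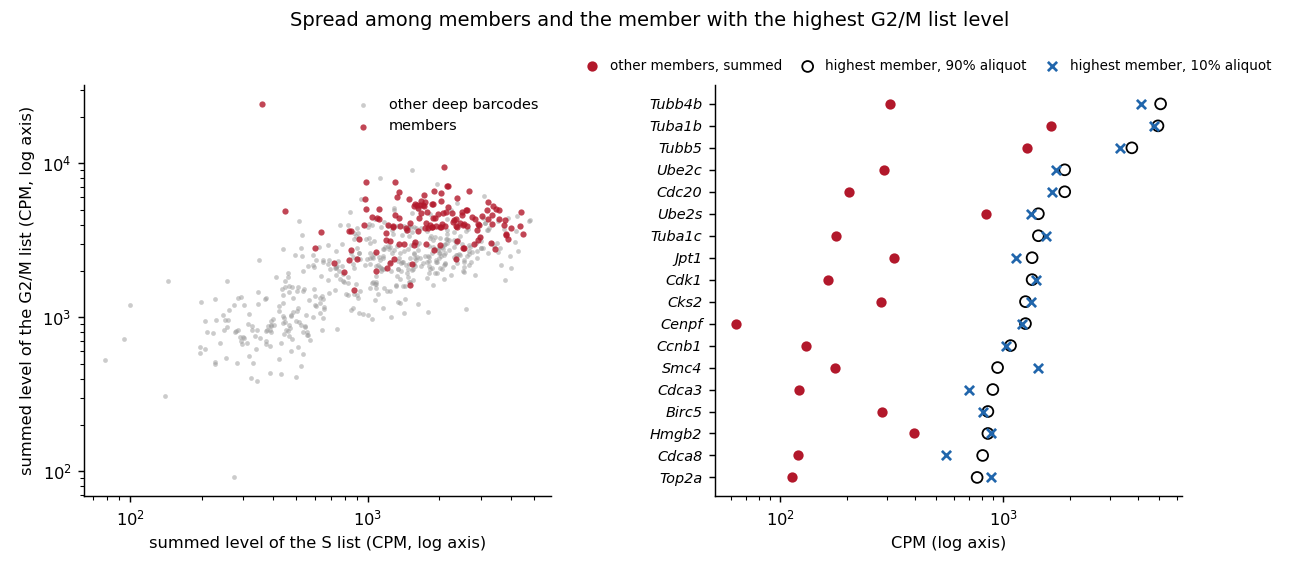
Left, summed CPM of the G2/M list against that of the S list in each deep barcode of the 90% aliquot (log axes), with members in red and the other 464 in grey. Right, CPM (log axis) of mitosis genes in the member with the highest G2/M level, in the 90% (circles) and 10% (crosses) tables, beside the other 138 members summed. The highest member lies alone at 24322 and 359 CPM, and its Cenpf stands at 1257 and 1215 CPM in the tables against 63.5 CPM in the others.

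In the 10% aliquot the same rule, with its own z-scores, gave 20 members of 78 deep cells (25.64%, 16.42 to 36.79%). Of these 20, 19 were members in the 90% table, and 66 of the 76 shared barcodes fell into the same class in both. Here 217 of 4513 genes (4.81%) were at least 2-fold higher and 176 (3.9%) lower, over fewer cells, and with at least 10 UMIs 844 of 11242 (7.51%) and 1303 (11.6%). To set disjoint cells side by side, the 90% members were also taken without shared barcodes, which left 118 members and 409 others. In these 140 of 4729 genes (2.96%) were higher and 103 (2.18%) lower, and with at least 10 UMIs 739 of 15491 (4.77%) and 1806 (11.7%). Of 4201 genes that passed in both sets, 109 were at least 2-fold higher in the disjoint 90% cells and 180 in the 10% cells, and 72 were shared, 66.1% of the first and 40% of the second. For lower genes the counts were 77 and 129, with 54 shared (70.1 and 41.9%). Both sets were chosen by the same genes in the same capture. The folds of Plk1 were 5.75 (4.54 to 7.32) in the disjoint 90% cells and 5.88 (3.60 to 9.86) in the 10% cells, those of Aurka 5.06 (4.22 to 6.08) and 4.203 (2.86 to 6.23), and those of Kif20a 4.01 (3.24 to 4.96) and 4.50 (2.71 to 7.63). Others were larger in the 10% cells. Nusap1 had folds of 2.69 (2.16 to 3.34) and 11.6 (6.98 to 20.3), Kpna2 of 3.02 (2.62 to 3.47) and 7.17 (4.89 to 10.7), and Cenpf of 2.46 (2.12 to 2.86) and 5.41 (4.15 to 7.10). The member with the highest G2/M level is among the 10% cells and not among the disjoint 90% cells. Of the UMIs of the 10% members it held 8 of 81 of Nusap1, 10 of 100 of Kpna2 and 33 of 171 of Cenpf. Why these folds differ between the sets was not tested.

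Long reads were available for the 20 members (1435735 UMIs) and the 58 other deep cells (3161946 UMIs) of the 10% aliquot. Of 8813 genes with at least 20 long-read UMIs, 739 (8.39%) were at least 2-fold higher in members and 1332 (15.1%) lower. Of the G2/M list 37 of 49 such genes were higher, with a median log2 fold of 1.76 against −0.05 over all genes, and of the S list 8 of 39, with a median of 0.23. Ccnb1 had 579 long-read UMIs in members and 202 in the others (6.31-fold, 5.37 to 7.45), and 5.37-fold without the highest member, which held 99 of them. Plk1 had 131 and 70 UMIs (4.12-fold, 3.06 to 5.59) and Ube2c 619 and 290 (4.70-fold, 4.08 to 5.42). Nusap1 had 112 and 17 UMIs (14.5-fold, 8.67 to 25.8) and Ckap2l 138 and 28 (10.9-fold, 7.19 to 16.9), or 8.63-fold without the highest member.

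Isoform use, which the rule did not read, was compared on these UMIs. The table lists 965 isoforms for 137 of the 138 genes of the mitosis lists and set. In 1086 of 5560 genes with enough UMIs (19.5%) the share of an isoform differed by at least 20 percentage points between members and other deep cells. Among mitosis genes this held for 32 of 116 (27.6%), with a median largest difference of 12.2 points against 10.4 points over all genes. This limit takes no account of counting error. Of the 6 genes with the most UMIs, Tuba1b, Tubb5, Ube2s and Stmn1 had main isoforms at like shares, and Tubb4b and Cdc20 did not. Tuba1b, an alpha-tubulin, was listed with 1 isoform. ENSMUST00000001566.9 of Tubb5, the main beta-tubulin of dividing cells, held 64.4% of 4686 UMIs in members (63.0 to 65.8%) and 63.2% of 6393 in the others (62.0 to 64.4%). ENSMUST00000079496.8 of Ube2s, which extends ubiquitin chains for the APC/C, held 63.7% (61.5 to 65.9%) and 64.7% (63.0 to 66.4%). ENSMUST00000030636.10 of Stmn1 held 92.6 and 91.8%. Of the rule genes, Birc5, with fewer UMIs, had ENSMUST00000081387.10 at 85.9 and 86.8%.

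Shares of other genes lay further apart, for Cdc20 and Tubb4b beyond their counting intervals. ENSMUST00000006565.12 of Cdc20, with 10 exons, held 91.6% of 825 UMIs in members (89.5 to 93.4%) and 84.3% of 388 in the others (80.3 to 87.8%), and 93.3% without the highest member. ENSMUST00000043584.4 of Tubb4b held 90.2% of 1655 UMIs (88.7 to 91.6%) and 82.5% of 1101 (80.1 to 84.7%). The highest member held 399 of these Tubb4b UMIs, with a share of 95.7%, and without it the share was 88.5%. The main isoform of Cdk1, which has no reference name, held 92.4% of 513 (89.8 to 94.5%) and 96.7% of 211 UMIs (93.3 to 98.7%), intervals that overlap. Ccnb1 was used as several isoforms. An 8-exon form (chr13:100778732-100786499) held 53.9% of 579 UMIs (49.7 to 58.0%) in members and 49.5% of 202 (42.4 to 56.6%) in the others. Without the highest member, in which its share was 73.7%, it held 49.8%. A second 8-exon form, which ends at chr13:100779201 on the side of the 3′ end, held 17.8% (14.8 to 21.2%) and 14.9% (10.2 to 20.5%).

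The 4 largest differences rested on few UMIs. An isoform of Zwilch, of the complex that brings checkpoint proteins to kinetochores, held 70.0% of 30 UMIs in members (50.6 to 85.3%) and 24.2% of 33 in the others (11.1 to 42.3%), and the highest member had no UMI of it. A 9-exon isoform of Dlgap5, a spindle protein, held 15.4% of 52 (6.88 to 28.1%) and 58.6% of 58 UMIs (44.9 to 71.4%). ENSMUST00000075550.3 of Cenph, an inner kinetochore subunit, held 45.2% of 31 (27.3 to 64.0%) and 87.8% of 41 (73.8 to 95.9%). ENSMUST00000024851.9 of Ndc80, which binds microtubules at the kinetochore, held 84.2% of 57 (72.1 to 92.5%) and 56.0% of 25 (34.9 to 75.6%). UMIs of a gene can come from few cells, and these intervals do not cover differences between cells.

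**Figure D4:**
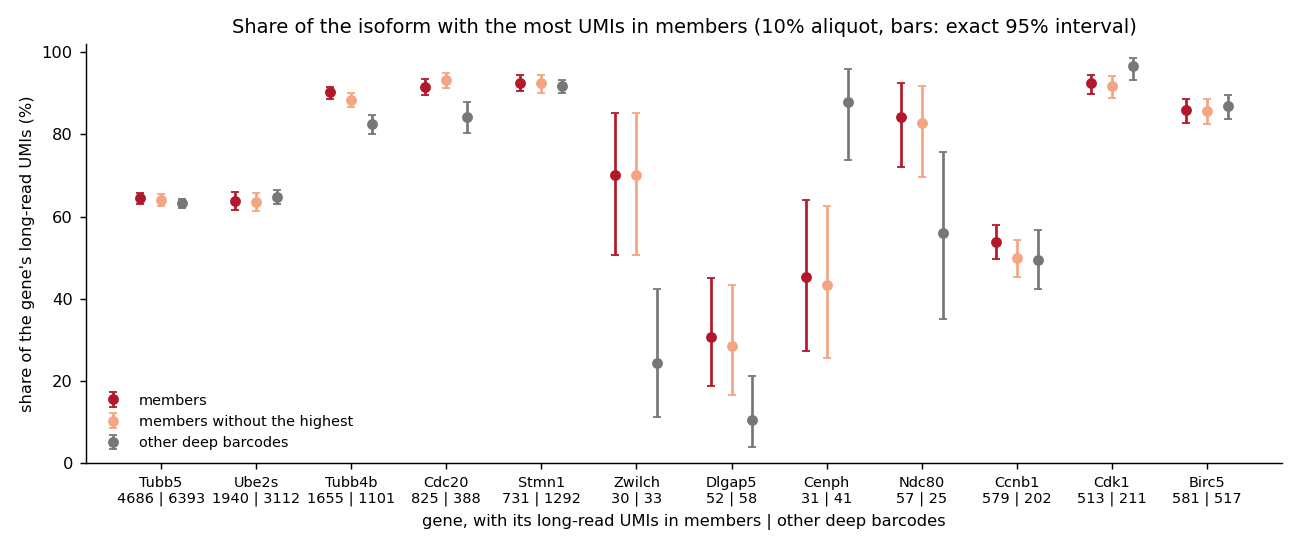
Share (%) of each gene's long-read UMIs on the isoform with the most UMIs in members, in the 20 members (red), the 19 members without the highest (orange) and the 58 other deep barcodes (grey) of the 10% aliquot, with exact 95% intervals for counting error. The numbers under each gene are its UMIs in members and in others. Tubb5 and Ube2s lie within 2 points of each other, while Cdc20 is at 91.6 and 84.3%, and the wide intervals of Zwilch, Dlgap5, Cenph and Ndc80 rest on 25 to 58 UMIs. For Dlgap5 the isoform shown, at 30.8% in members and 10.3% in others, is not the 9-exon form described in the text.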

How the data were processed

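The authors deposited UMI counts per gene, made with scPipe from Illumina reads and not normalized, for both aliquots, and for the 10% aliquot the FLAMES table of long-read UMIs on each isoform (GRCm38). The submitters' processing notes name GRCm38.p6, Cell Ranger 1.3 and minimap2 2.17, and it is the study's methods that name scPipe for the gene counts. Symbols and positions were taken from Gencode vM21 on the same assembly, and promoters from RefSeq. The 10% table held 6772259 UMIs over 1991 barcodes. The members and all gene lists were chosen with earlier results of these data known, and scores, UMI sums and CPM folds were computed in Python 3.11.15 with scipy 1.17.1. Scrublet was run in scanpy 1.11.5.

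Named are the 24 genes of the rule, the 3 largest and the smallest fold in each mitosis list, the 10 largest and 10 smallest folds of genes with at least 50 CPM, the extremes of the other lists, and Pax7, Myf5 and Myod1. Some results that the rule and lists would include are not reported here. For isoforms, those with the most UMIs and the largest differences among genes with at least 20 UMIs were named. Where a symbol has several gene IDs, the ID with more UMIs was used. Functions were tested on simulated data. Read classes per barcode, planned at first, were not made, since the barcode tables hold a single count. Promoters matched 91 of the 141 higher genes, under 80%, so motif shares of these are not given. They matched 28 of the 40 S list genes, also under 80%, and those shares are given with this limit. Alternatives were other UMI minimums, thinning before scoring, a margin of 0.5, doublet removal, another log scale, means over cells, other references and gene filters, and 2 chosen after seeing the data, given below.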

Additional observations from a re-analysis of the deposited data

How the results depend on the processing

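No paired analysis was possible because a single capture was made and nothing is replicated. Requiring a margin of at least 0.5 left 51 members, a share of 8.458%, and under the other alternatives the share was between 21.39 and 25.64%. Against the S-phase class 40 genes were at least 2-fold higher and 9 lower, and the median log2 fold of the S list was −0.20. With a minimum of 10 UMIs in place of 20 CPM, 761 were higher and 1906 lower, and in the 10% aliquot 217 and 176. Under the other alternatives the genes at least 2-fold higher in members numbered between 115 and 162 and the genes at least 2-fold lower in members between 95 and 140. The median log2 fold of the G2/M list was between 0.84 and 1.59, and the median log2 fold of the S list was between 0.27 and 0.56 except against the S-phase class. Doublet removal took out no deep cell and tests nothing. Leaving out barcodes deep in both aliquots and leaving out the member with the highest G2/M level were chosen after seeing the data. Of 56 named genes at least 2-fold apart, all kept their direction in 8 settings and 52 stayed at least 2-fold apart in each. The exceptions were Hmgb2 (1.90 to 1.997), Mki67 (1.87 with the margin and 1.72 without shared barcodes), Cdca7 (1.76 with the margin) and Smad7. The 56 genes include genes of the rule, whose direction the rule itself sets, so these counts are no support for them. The settings include the doublet removal, which changed no deep cell. They do not include means over cells, the S-phase reference or the 10% aliquot. All 37 isoform shares in members stayed within their intervals when z-scores used the 90% means and SDs, which gave 22 members. Without the highest member 36 of 37 did, the exception being Tubb4b at 88.46%. Shares in the other cells were not set against their intervals. With the 90% means and SDs the main isoform of Cdc20 held 90.95% in members and 85.5% in the others, and that of Tubb4b 90.2 and 82.3%. Genes with few UMIs per cell, such as Plk1, are limited by depth, and class-wide values say nothing about the spread between animals.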

Other observations

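Of the 141 genes at least 2-fold higher in members, 94 were neither of the rule nor in a mitosis list. The genes named here were chosen after their values were seen, so they carry no test and stand for no theme. Id1, an inhibitor of basic helix-loop-helix factors, was at 151.6 CPM in members and 52.7 CPM in the other deep cells, a log2 fold of 1.52. Id2, of the same family, was at 267 and 128 CPM (1.06). Pbk, a kinase active in mitosis, was at 93.3 and 32.5 CPM (1.52), and Cdkn3, a phosphatase of Cdk1 and Cdk2, at 28.5 and 13.2 CPM (1.11). The nucleoporins Nup37, at 86.6 and 28.3 CPM (1.61), and Nup43, at 47.7 and 20.9 CPM (1.19), belong to a subcomplex that also binds kinetochores. Factors of ribosome assembly were among these genes too, such as Dkc1 at 115 and 49.6 CPM (1.21), Grwd1 at 44.8 and 16.7 CPM (1.42), Rpf2 at 84.8 and 39.3 CPM (1.11) and Brix1 at 109 and 51.9 CPM (1.07).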
